A study of Mus musculus with 6 samples.

Results

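Amino acid transporters were followed in a mouse pro-B cell line in which the transcription factor PU.1 could be switched on. The genes were those whose symbol begins with Slc1a, Slc3a, Slc6a, Slc7a, Slc36a, Slc38a or Slc43a followed by a digit, and 64 of 23793 rows of the deposited expression table matched. Of these rows 3 are named as opposite-strand transcripts (Slc7a6os, Slc6a19os and Slc36a1os) and 4 encode carriers of monoamines or creatine (Slc6a2, Slc6a3, Slc6a4 and Slc6a8), so 57 rows encode members of amino acid transporter families in the narrower sense. The 57 still include Slc43a3, a family member known as a carrier of purine nucleobases.

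Messenger RNA was sequenced from 6 libraries of i660BM cells, a C57BL/6 pro-B line kept in interleukin 7 that holds a PU.1 gene switched on by doxycycline, 3 non-induced and 3 given 70 ng/ml doxycycline for 48 h. Pro-B cells are B cell precursors at an early stage, and PU.1, encoded by Spi1, is an ETS family factor of myeloid and B cells. No library received doxycycline without the induction of PU.1, so the effects of the drug and of the factor cannot be told apart. The table holds 1 FPKM value per gene and group, a measure of fragments that is scaled to transcript length and library size, so that levels of different genes can be compared. Values of single libraries are not given in it, and no standard deviation can be printed. The labels do not state that the 3 libraries per group were separate cultures, so the p-values may measure technical spread.

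Amino acids cross membranes through several families of solute carriers that differ in substrate and in coupling. The Slc1 family holds sodium-dependent carriers of glutamate and aspartate and a pair of exchangers of neutral amino acids, and several Slc38 members take up neutral amino acids, glutamine among them, with sodium. Members of the Slc7 family are either single-chain carriers of cationic amino acids or light chains that exchange amino acids and reach the membrane only when bound to an Slc3 heavy chain. The Slc43 family carries large neutral amino acids by facilitated diffusion, the Slc6 family transports amino acids and neurotransmitters with sodium and chloride, and the Slc36 family exports small amino acids with protons from lysosomes or takes them up at the cell surface. Proliferating lymphocytes are known to depend on Slc1a5 and on the Slc7a5 and Slc3a2 pair for glutamine and leucine, which feed protein synthesis and the kinase complex mTORC1.

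The induced gene and the cell type were checked first. Spi1 stood at 36.0 FPKM without and 246 FPKM with induction, and the endogenous and introduced copies share that symbol. All 10 pro-B markers used were tested, among them Cd79a, Cd79b and Pax5, and their summed level was 2443 and 3843 FPKM. By the authors' test, at an adjusted p-value under 0.05, 8 were higher and 0 lower, beside 19.0% and 16.1% of all tested rows. Cd79a was not among the 8. Igll1 (538 and 1083 FPKM) and Vpreb1 (683 and 1197 FPKM) made up much of both sums. Rag1 stood at only 0.00348 and 0.434 FPKM. Markers of T cells, erythroid cells, NK cells and stromal cells each summed to under 0.5 FPKM in both groups. The 7 macrophage and granulocyte markers summed to 0.378 and 15.6 FPKM, of which Lyz2 made 0.361 and 15.2 FPKM. Of the untested markers, Csf1r stood at 0 and 0.192 FPKM, Itgam at 0.0133 and 0.151 FPKM and Emr1 at 0 and 0.0512 FPKM. Mpo was untested at 0.00358 and 0 FPKM. Elane, whose row shares its locus with many others, and S100a8 were listed at 0 in both groups. The part of this marker change in the transporter values was not tested, and in a bulk culture fewer cells of a type and less RNA per cell cannot be told apart. From the spacing of the lowest FPKM values, the depth was about 40500000 fragments per non-induced library and 40800000 per induced library.

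Transporter genes fell into a smaller expressed set and a larger one listed at or near 0. The authors had tested 23 of the 64 rows for a difference between the groups. The other 41 rows were not tested. Of these 24 were listed at 0 in both groups and 38 were under 0.05 FPKM in both, and a value of 0 can be a failed estimate and does not show that the gene was absent. The highest untested value was that of Slc36a3, a family member with no established substrate, at 0.173 FPKM without and 0.142 FPKM with induction. Slc7a11, the cystine and glutamate exchanger xCT, was among the untested rows at 0.00179 and 0.00259 FPKM, and it is named here after its values were seen. All 4 monoamine and creatine carriers were untested.

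Among the tested rows 8 rose and 1 fell on induction, and 14 did not pass the authors' test. A gene was called when its deposited q-value, the p-value adjusted for all tested rows, was under 0.05. Slc7a9, Slc38a9, Slc43a2, Slc38a6, Slc7a3, Slc43a3, Slc6a6 and Slc7a5 were called higher, and Slc7a6 was called lower, going by the authors' deposited table. Higher calls thus made up 34.8% of the tested transporter rows, beside 19.0% of all 10657 tested rows, and lower calls 4.35% beside 16.1%. The median log2 change of the 23 rows was -0.0021 and that of all tested rows -0.0070. Read as normal deviates, the deposited test statistics left 4 of the 23 rows called (Slc7a9, Slc38a9, Slc43a2 and Slc38a6), all 4 of them higher, beside 15.2% of all rows with a statistic called in either direction. At an unadjusted p under 0.05, Cuffdiff's p-values from the authors' deposited table gave 8 higher and 4 lower rows. The lower rows were Slc7a6, Slc7a6os, Slc38a7 and Slc38a10, and the normal p-values gave 0 lower rows. The share of all tested rows at that threshold was not computed, so these counts are a description only.

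**Figure D1:**
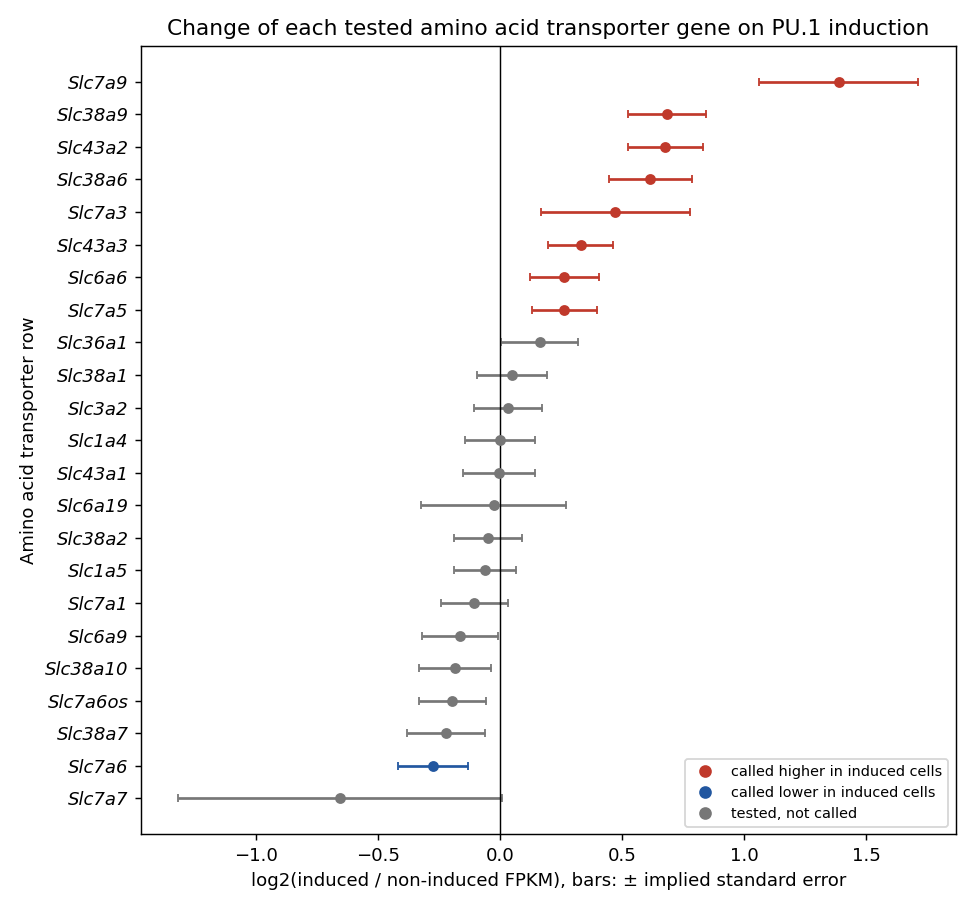
Change of each of the 23 tested transporter rows, as log2 of induced over non-induced FPKM from the authors' deposited table, with bars of 1 implied standard error either way. Slc7a9 stands apart at 1.39, Slc38a9, Slc43a2 and Slc38a6 lie between 0.61 and 0.68, and Slc7a7 at the bottom has the widest bar.

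The transporters that changed most were expressed at low levels. In the 13 rows that reached 10 FPKM in a group the largest absolute log2 change was 0.33, and the median absolute change was 0.11, beside 0.14 for all tested rows at that level. In the 10 rows under 10 FPKM in both groups the median absolute change was 0.54, beside 0.24 for all tested rows under it. A gene close to the limit of testing could enter mainly where it was higher in a group, so the second pair of medians is a description only. Calls were made in 4 of the 13 rows and in 5 of the 10, beside 33.5% of all tested rows at the higher level and 38.0% of those at the lower one, and 35.1% of all tested rows.

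**Figure D2:**
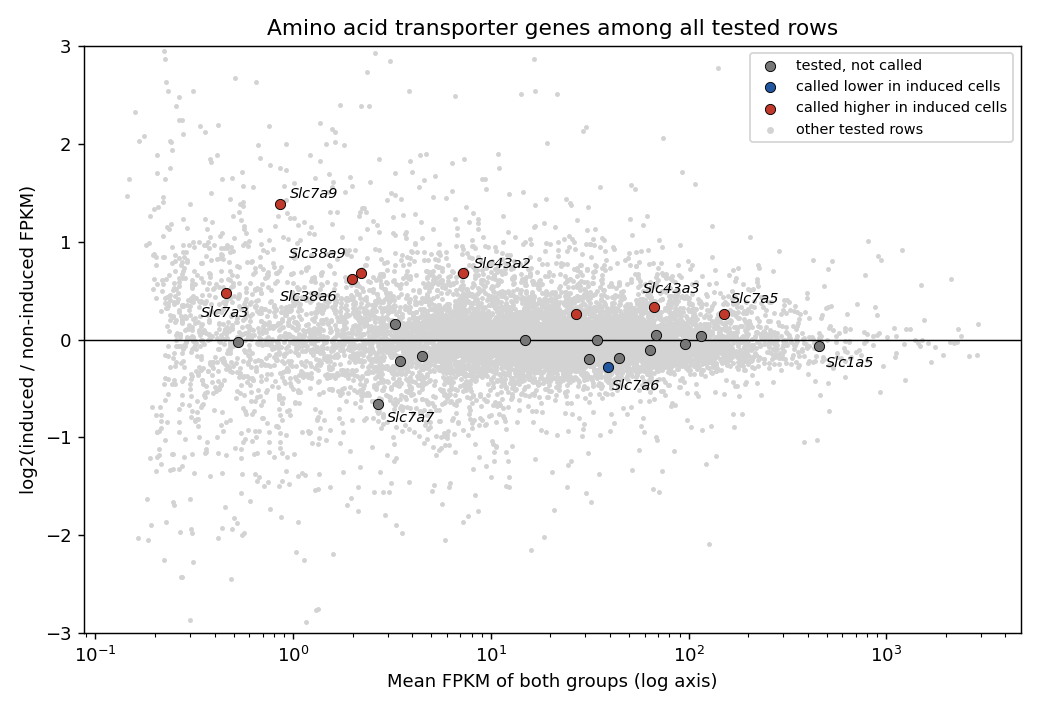
Each grey point is 1 of the other tested rows, placed by its mean FPKM over both groups (log axis) and its log2 change by the authors' deposited table, and the larger points are the 23 transporter rows. The vertical axis ends at 3 in either direction, which leaves out 107 of 10634 other rows. Transporters above 10 FPKM lie close to 0, and the 5 called rows under 10 FPKM lie above it.

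Slc7a9 had the largest change. It encodes b0,+AT, the light chain that exchanges cystine and cationic amino acids in kidney and gut and is mutated in cystinuria. It rose from 0.477 to 1.25 FPKM, 2.61-fold, with a log2 change of 1.39 by the authors' deposited table (implied standard error 0.33 and q = 0.000287). The implied standard error is the log2 change divided by the test statistic, a relation that the table does not state. These levels correspond to about 112 fragments in the 3 non-induced libraries and 296 in the 3 induced ones, if all came from its longest annotated transcript. It was the only tested transporter row to change by 2-fold or more. Its heavy chain partner is encoded by Slc3a1, which was untested at 0.0381 and 0.0952 FPKM and shares its locus in the table with Prepl. Slc3a1 is named after its values were seen. Slc7a9 spans 35448796 to 35466036 on chromosome 7, plus strand (GENCODE M21, mm10), a protein-coding gene, as are the other 8 called genes.

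Slc38a9 and Slc38a6, of the sodium-coupled neutral amino acid transporter family, both rose. Slc38a9 is a lysosomal arginine transporter that reports lysosomal amino acids to mTORC1. It stood at 1.70 FPKM without and 2.73 FPKM with induction. The log2 change was 0.68 by the authors' deposited table (implied standard error 0.16 and q = 0.000287). Slc38a6, a less studied member of the family, stood at 1.56 and 2.39 FPKM, with a log2 change of 0.61 by the authors' deposited table (implied standard error 0.17 and q = 0.000287). Slc38a9 spans 112660751 to 112738749 on chromosome 13 and Slc38a6 73286779 to 73354049 on chromosome 12, both on the plus strand. Both genes thus remained under 3 FPKM in either group.

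Slc43a2 encodes LAT4, a facilitator of large neutral amino acids such as leucine and phenylalanine. It went from 5.55 to 8.87 FPKM. The log2 change was 0.68 by the authors' deposited table (implied standard error 0.15 and q = 0.000287). The row shares its locus with Mir3971. The gene spans 75531694 to 75577575 on chromosome 11, plus strand. With Slc7a9, Slc38a9 and Slc38a6 it forms the set of 4 transporters that were called and changed by at least 1.5-fold, a mark passed upward by 6.34% and downward by 3.85% of all tested rows.

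The stretch before the transcription start was read for these 4 genes, which all rose when an ETS factor was induced. Of the 9 called genes only these 4 had a promoter window at the edge of the deposited locus. RefSeq promoter windows on GRCm38.p6 were found for 46 of the 64 rows and for 5 of the 9 called genes, and the 250 bases before the start at the edge of the deposited locus were searched. They are printed 5′ to 3′ in the direction of the gene, up to the first base that GENCODE M21 annotates as an exon of that gene. Capitals mark GAGGAA, or TTCCTC where it lies on the opposite strand, the purine-rich core of the PU.1 site.
Slc7a9 (chr7:35448842-35449036, plus strand): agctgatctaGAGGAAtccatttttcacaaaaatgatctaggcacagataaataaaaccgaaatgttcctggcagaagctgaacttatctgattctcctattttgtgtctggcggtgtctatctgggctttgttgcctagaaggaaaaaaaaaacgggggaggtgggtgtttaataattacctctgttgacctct
Slc43a2 (chr11:75531444-75531693, plus strand): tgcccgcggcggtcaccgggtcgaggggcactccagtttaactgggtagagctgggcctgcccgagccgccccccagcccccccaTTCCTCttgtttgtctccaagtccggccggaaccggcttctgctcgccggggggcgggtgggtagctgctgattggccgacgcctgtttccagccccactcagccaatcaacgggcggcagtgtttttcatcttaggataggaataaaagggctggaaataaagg
Slc38a9 (chr13:112660516-112660750, plus strand): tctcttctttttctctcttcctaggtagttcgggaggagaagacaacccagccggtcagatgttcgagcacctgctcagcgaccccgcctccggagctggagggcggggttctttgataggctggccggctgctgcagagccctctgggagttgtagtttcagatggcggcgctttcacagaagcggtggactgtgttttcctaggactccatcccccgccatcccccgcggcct
Slc38a6 (chr12:73286598-73286778, plus strand): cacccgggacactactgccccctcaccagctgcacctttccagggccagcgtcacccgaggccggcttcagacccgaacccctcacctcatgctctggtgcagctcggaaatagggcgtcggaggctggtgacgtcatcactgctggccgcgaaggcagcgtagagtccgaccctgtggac
Slc7a9 holds the core 240 bases before the start and, on the opposite strand, with its first letter 43 bases before it, past the end of the printed stretch. Another annotated Slc7a9 transcript starts further upstream, at 35448796, and the printed stretch lies in its first intron. Slc43a2 holds it once on the opposite strand, 165 bases before the start. The windows of Slc38a9 and Slc38a6 hold none. The core, searched on both strands, stood in 23.3% of all 32851 promoter windows of 250 bases, in 13 of the 46 transporter genes with a window and in 5 of the 17 tested ones (Slc38a7, Slc43a2, Slc6a9, Slc7a7 and Slc7a9). The longer GAGGAAGT, which contains the core, stood in 2.44% of all windows and in 0 of the 46. TGATGNAA, a composite site of the amino acid response, stood in 3.45% of all windows and in 2 of the 46, of which Slc7a7 was tested. Some genes have several windows, and a gene was counted if any of them matched. A match of letters describes the sequence and does not show binding.

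Neither of the tested Slc1 rows, Slc1a5 and Slc1a4, passed the authors' test. Slc1a5, which encodes the glutamine carrier ASCT2, was the most abundant transporter and ranked 97 among the 10657 tested rows by mean FPKM. It stood at 465 FPKM without and 445 FPKM with induction, with a log2 change of -0.06 by the authors' deposited table (implied standard error 0.13 and q = 0.625). Slc1a5 alone made up 37.8% of the summed FPKM of all 64 rows without induction and 35.9% with it. Its relative Slc1a4, the alanine, serine and cysteine carrier ASCT1, stood at 14.8 FPKM in both groups (q = 0.988 by the authors' deposited table). The remaining 5 Slc1 rows, which include the glutamate carriers of brain, were not tested.

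Slc38a2 and Slc38a1 encode the sodium-coupled glutamine and alanine carriers SNAT2 and SNAT1, and neither was called. Slc38a2, a gene known to be induced by amino acid starvation, stood at 97.5 and 94.2 FPKM, a log2 change of -0.05 by the authors' deposited table (implied standard error 0.14 and q = 0.70). Slc38a1 stood at 66.9 and 69.2 FPKM, a log2 change of 0.05 there (implied standard error 0.14 and q = 0.715 by the authors' deposited table). The 2 genes lie 44.5 kb apart on the minus strand of chromosome 15. Slc38a10 had 47.3 and 41.6 FPKM, a log2 change of -0.19 by the authors' deposited table (implied standard error 0.15 and q = 0.0680), and was not called. Slc38a7, a glutamine exporter of the lysosome, had 3.75 and 3.22 FPKM and likewise did not pass (q = 0.0753 by the authors' deposited table). Of the 6 tested Slc38 rows, then, 2 rose and both had low levels, and 4 did not pass the test. Among all tested rows 19.0% were called higher.

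**Figure D3:**
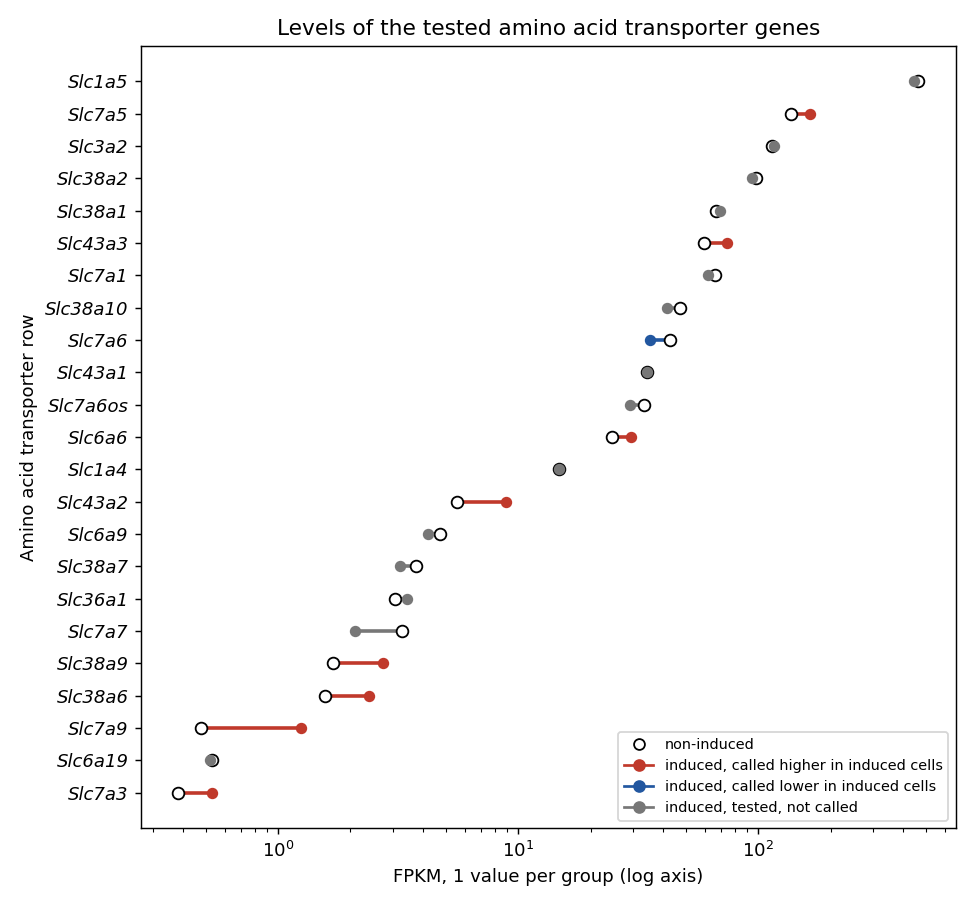
FPKM of the 23 tested transporter rows in non-induced (open) and induced (filled) cells, 1 value per group on a log axis, ordered by mean level and coloured by the authors' call. Slc1a5 lies far above the rest at 465 and 445 FPKM, and the long connecting lines belong to rows under 10 FPKM.

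The heavy chain of the leucine exchanger did not pass the test, while 1 of its light chains rose and 1 fell. Slc3a2 encodes 4F2hc, or CD98, the heavy chain that carries several Slc7 light chains to the surface. It stood at 114 FPKM without and 116 FPKM with induction and did not pass the test (log2 change 0.03, implied standard error 0.14 and q = 0.817 by the authors' deposited table). Its light chain Slc7a5, or LAT1, the main exchanger of leucine and other large neutral amino acids in lymphocytes, rose from 137 to 165 FPKM. The log2 change was 0.26 by the authors' deposited table (implied standard error 0.13 and q = 0.00498). Slc7a6, or y+LAT2, which exchanges cationic for neutral amino acids, fell from 42.9 to 35.5 FPKM. Its log2 change was -0.28 by the authors' deposited table (implied standard error 0.14 and q = 0.00498). The changes of Slc7a5 and Slc7a6 are both about 1.2-fold and run in opposite directions, and neither was called with normal p-values.

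The third tested light chain of this heavy chain was Slc7a7, or y+LAT1, the gene of lysinuric protein intolerance and the form used by macrophages. It had 3.28 and 2.08 FPKM and did not pass the test. Its log2 change of -0.65 by the authors' deposited table was close in size to that of Slc38a9, but its implied standard error was 0.66 (q = 0.208), and its row shares a locus with Oxa1l. The other 3 light chains, Slc7a8, Slc7a10 and Slc7a11, were untested. The FPKM of all 6 light chains summed to 184 in non-induced and 202 in induced cells, of which Slc7a5 made 74.8% and 81.4%. The level of Slc7a5 was 1.21 times that of Slc3a2 without induction and 1.42 times with it. The difference between these ratios was not tested, since the table has 1 value per group. On chromosome 8, Slc7a5 spans 121881150 to 121907694 (minus strand) and Slc7a6 106168857 to 106198706 (plus strand).

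Slc7a6os, an opposite-strand neighbour of Slc7a6 that is transcribed toward it and encodes no transporter, stood at 33.4 and 29.1 FPKM. It was not called, with a log2 change of -0.20 by the authors' deposited table (implied standard error 0.14 and q = 0.0631). The annotated genes end 2.01 kb apart and their rows have separate loci.

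Of the carriers of cationic amino acids, the abundant one did not pass the test and a scarce one rose. Slc7a1, or CAT1, the main arginine and lysine carrier of most cells, stood at 66.3 and 61.5 FPKM, a log2 change of -0.11 by the authors' deposited table (implied standard error 0.14 and q = 0.344). Slc7a3, or CAT3, a form best known from brain, went from 0.383 to 0.531 FPKM. Its log2 change of 0.47 by the authors' deposited table (implied standard error 0.31 and q = 0.0420) lay just inside the threshold and outside a threshold of 0.01. It was the lowest tested transporter row in non-induced cells, with about 128 fragments in non-induced and 179 in induced libraries on its longest transcript. It spans 101079210 to 101086020 on chromosome X, minus strand.

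Of the neighbours Slc43a1 and Slc43a3, the second rose and the first did not pass the test. They lie 73.0 kb apart on the plus strand of chromosome 2. Slc43a3, which is known as a carrier of purine nucleobases although it belongs to this family, rose from 59.2 to 74.4 FPKM (log2 change 0.33, implied standard error 0.13 and q = 0.000287 by the authors' deposited table). It was not called with normal p-values. Slc43a1, or LAT3, a facilitator of large neutral amino acids, stood at 34.5 and 34.4 FPKM (log2 change -0.0046, implied standard error 0.15 and q = 0.980 by the authors' deposited table). The level of Slc43a3 was 1.72 times that of Slc43a1 in non-induced and 2.16 times in induced cells. All 3 Slc43 rows were tested, and 2 of them were called higher, beside 19.0% of all tested rows. With normal p-values only Slc43a2 was called. Slc43a3 spans 84936579 to 84958509.

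Only 3 of 20 Slc6 rows were tested. Slc6a6, the taurine carrier, rose from 24.6 to 29.5 FPKM, a log2 change of 0.26 by the authors' deposited table (implied standard error 0.14 and q = 0.00696), and spans 91684053 to 91759066 on chromosome 6, plus strand. Slc6a9, the glycine carrier GlyT1, stood at 4.73 and 4.22 FPKM and shares its locus with Ccdc24 (q = 0.188 by the authors' deposited table). Slc6a19, the neutral amino acid carrier B0AT1 of kidney and gut, stood at 0.530 and 0.520 FPKM and shares its locus with the opposite-strand row Slc6a19os (q = 0.946 by the authors' deposited table). Fragments of rows that share a locus can have been split between them. In the Slc36 family only Slc36a1, the lysosomal proton-coupled carrier PAT1, was tested, at 3.08 and 3.44 FPKM, and it was not called (q = 0.187 by the authors' deposited table). The summed FPKM of all 64 rows was 1229 in non-induced and 1240 in induced cells.

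Genes that respond to amino acid shortage, which include targets of the transcription factors ATF4 and CHOP, were read beside the transporters. Of 23 tested members 9 rose (39.1%) and 2 fell (8.70%), beside 19.0% and 16.1% of all tested rows. The median log2 change of the list was 0.20. Cth, the enzyme that makes cysteine from cystathionine, rose from 6.15 to 11.0 FPKM, and Eif2ak4, which encodes the amino acid sensing kinase GCN2, from 10.5 to 15.7 FPKM. Mthfd2, a mitochondrial folate enzyme, rose from 107 to 138 FPKM, and Ddit4, an inhibitor of mTORC1, fell from 37.9 to 27.4 FPKM. Atf4 itself stood at 315 and 325 FPKM and did not pass the test (q = 0.743 by the authors' deposited table). Only 3 of its members were higher and 1 lower when normal p-values were used, and 1 was lower at a q-value under 0.01. The 20 cytosolic aminoacyl-tRNA synthetases, which load amino acids onto tRNA, were all tested, and 0 rose and 4 fell, each by a small amount. The shares were 0% and 20%, beside the same 19.0% and 16.1%. Farsa went from 66.9 to 56.6 FPKM, Farsb from 69.3 to 59.1 FPKM, Hars from 85.5 to 73.1 FPKM and Eprs from 102 to 87.7 FPKM. Farsa shares its locus with Mir7069 and Farsb with Sgpp2, and without such rows 2 synthetases were lower. At an unadjusted p under 0.05 Cuffdiff had 1 synthetase higher and 6 lower, and the share of all tested rows at that threshold was not computed. None of the 4 genes just named was called at a q-value under 0.01 or with normal p-values.

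Genes that signal amino acids to mTORC1 had 3 of 30 tested members higher and 6 lower (median log2 change -0.05). The shares were 10% and 20%, beside 19.0% and 16.1% of all tested rows. The kinase gene Mtor rose from 71.8 to 126 FPKM and Lamtor1, a lysosomal anchor of the complex, from 53.0 to 68.3 FPKM, and both share a locus with another row. Gatsl3, the older symbol of the arginine sensor gene Castor1, fell from 4.30 to 2.31 FPKM, and the GTPase gene Rraga from 65.9 to 52.8 FPKM. By normal p-values 1 member was higher and 1 lower, and without rows that share a locus 1 was higher and 5 were lower. Other carriers of amino acids and peptides, including those of mitochondria, had 3 of 15 tested members higher and 7 lower (median log2 change -0.09). Their shares were 20% and 46.7%, beside the same 19.0% and 16.1%. The mitochondrial glutamate carrier gene Slc25a18 rose from 0.349 to 0.782 FPKM. The lysosomal histidine and peptide carriers Slc15a4 and Slc15a3 went in opposite directions, from 10.6 to 14.5 FPKM and from 20.2 to 12.1 FPKM. The row of Slc15a3 shares its locus with Tmem132a. Pqlc2, which exports cationic amino acids from lysosomes, fell from 7.20 to 5.30 FPKM. Lower calls among these carriers dropped to 2 by normal p-values, beside 2 higher ones.

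Enzymes of amino acid metabolism had 2 of 24 tested members higher and 6 lower (median log2 change -0.09). The shares were 8.33% and 25%, beside 19.0% and 16.1% of all tested rows. Prodh, which starts the breakdown of proline, had the largest change of the list, from 0.759 to 5.44 FPKM. Gldc, of the glycine cleavage system, fell from 169 to 91.7 FPKM, Asl, which makes arginine, from 28.7 to 20.0 FPKM and Odc1, the first enzyme of polyamine synthesis, from 76.0 to 61.7 FPKM. By normal p-values 1 enzyme was higher and 2 were lower. Genes of glutathione synthesis and of the antioxidant factor NRF2, which draw on imported cystine, had 5 of 13 tested members higher and 2 lower (median log2 change 0.14). Their shares were 38.5% and 15.4%, beside the same 19.0% and 16.1%. Gpx1, a glutathione peroxidase, rose from 307 to 540 FPKM, Cd44, an adhesion receptor known to hold xCT at the membrane, from 11.7 to 18.2 FPKM and Mgst1, a glutathione transferase, from 53.2 to 73.1 FPKM. Nfe2l2, which encodes NRF2, fell from 47.5 to 35.1 FPKM. In this list normal p-values left 3 higher and 1 lower, and leaving out rows with a shared locus, or requiring a q-value under 0.01, left 1 lower. By normal p-values 15.2% of all rows with a statistic were called in either direction. The lists are described by their counts and medians only, and no test compared them with other genes.

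**Figure D4:**
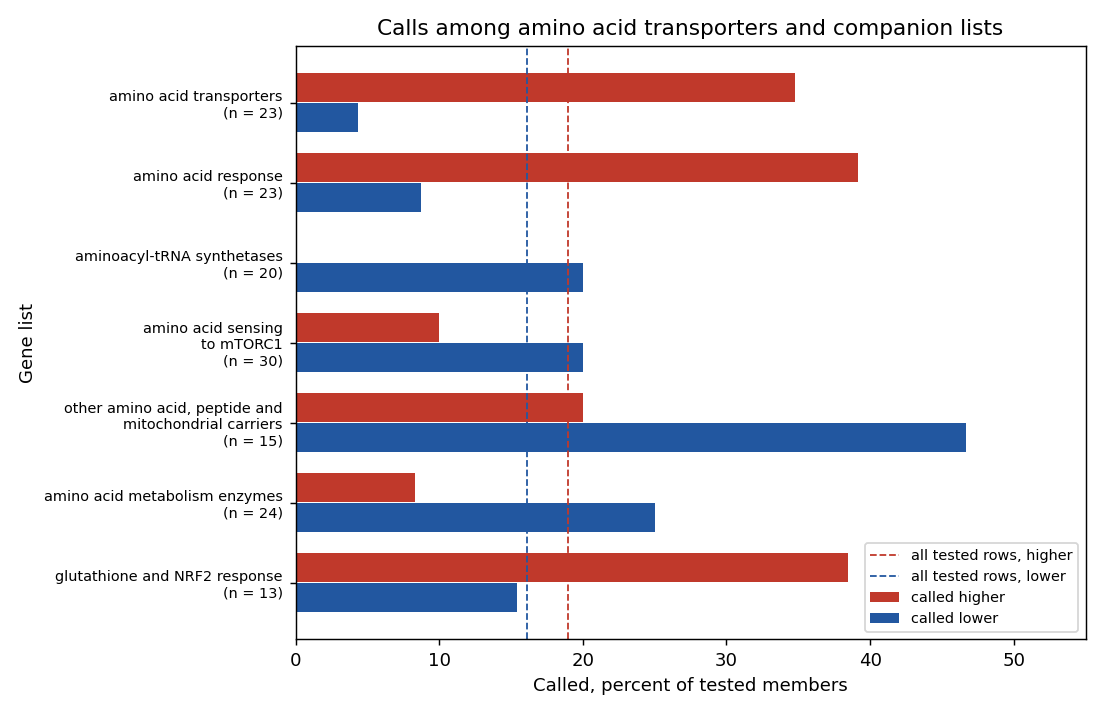
Share of tested members called higher or lower in induced cells, in percent, for the 23 transporter rows and 6 companion lists, with dashed lines at 19.0% and 16.1% for all tested rows. Higher calls make up 34.8% of the transporters, 39.1% of the amino acid response list and 0% of the aminoacyl-tRNA synthetases, and lower calls 46.7% of the other carriers, where 7 lower calls became 2 by normal p-values.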

How the data were processed

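Stranded mRNA libraries were prepared from column-purified RNA, per the labels' protocols. The submitters' processing notes name Trim Galore 0.2.8.1, TopHat2 2.0.9, Cufflinks, Cuffdiff 2.1.1 and build mm10. The annotation used is not given in the sources used here.

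In the authors' deposited table there is 1 FPKM value per gene and group, and the deposited log2 fold change, test statistic (a score without a fixed scale), p-value and q-value. A tested row is called when its deposited q-value is under 0.05. Benjamini-Hochberg adjustment of the deposited p-values over the 10657 tested rows gave the deposited q-values to within 5.15e-07. As many as 1855 rows had the smallest p-value of 5e-05 and with it the smallest q-value of 0.000287. No test of single genes was added, because the table holds no replicates. A normal p-value was also taken from the test statistic and adjusted over the 10628 rows that had one. The function was first run on simulated normal deviates. That run checks the calculation only and cannot show that the deposited statistic is a normal deviate.

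Depth was estimated from FPKM times transcript length for genes with 1 transcript of at least 1 kb. Of the values up to about 4 fragments, 68.3% and 64.1% lay within 0.15 of a whole fragment, against 30% for evenly spread values at a fixed step. The step was chosen to fit these same values best, so the 30% is not a like reference and the depth is approximate.

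All rows matching the symbol rule are accounted for. Every tested member was named, untested members only from 0.1 FPKM or where stated, and of each companion list the 4 called genes with the largest absolute log2 change. Atf4 was added after its value was seen, and 1 pro-B marker is not reported here. The members and lists were chosen with earlier results of these data known. Coordinates come from GENCODE M21 and promoters from RefSeq. The analysis used Python 3.11.15, pandas 2.3.3, numpy 2.4.6 and scipy 1.17.1.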

Additional observations from a re-analysis of the deposited data

How the results depend on the processing

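The count of 8 transporter rows called higher and 1 called lower stayed within 1.5 times at a q-value under 0.01. It also did so over rows of at least 1 FPKM and without rows that share a locus. Leaving out opposite-strand, monoamine and creatine rows could not change the count. No monoamine or creatine row was tested, and Slc7a6os, the only tested opposite-strand row, was not called. With normal p-values from the deposited statistic 4 rows were higher and 0 lower, and with at least 1.5-fold required 4 were higher and 0 lower. The normal p-values left out Slc7a5, Slc6a6, Slc43a3, Slc7a3 and Slc7a6, and a q-value under 0.01 left out Slc7a3. The cause was not tested. The median log2 change of the tested rows lay between -0.0034 and 0.033 over all alternatives run. Centring on the median of all tested rows, a shift of 0.0070, turned the signs of Slc1a4 (0.0048) and Slc43a1 (0.0024), neither of which was called. A pseudocount of 1 adds the same amount to both values and so cannot turn a sign, and it was no check of direction. No paired analysis was possible because the table holds 1 value per group, and for the same reason no library could be left out. The depth of single libraries and their spread are unknown, and for the lowest rows the fragment estimates rest on transcript lengths.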
